A study of Drosophila melanogaster with 3 samples.

Results

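The Cpr genes of Drosophila melanogaster encode cuticular proteins, and they are described here in a map of where the protein of CG1529 sits on embryonic chromatin. Their members were taken by name: every protein-coding gene of the Ensembl BDGP6 annotation whose name starts with Cpr followed by a cytological position, which gave 70 of 13945 protein-coding genes on the major chromosome arms. The data are peak lists from chromatin immunoprecipitation with sequencing (ChIP-seq) of whole embryos of mixed sex, 0 to 14 h old. All 3 libraries, biological replicates 1, 2 and 3, came from 1 transgenic line that stably carries CG1529, predicted to encode a zinc finger protein, fused to green fluorescent protein (GFP) at its C terminus. They form a single group with no second genotype, stage or treatment. One label names CG1529 as the precipitated target while the free-text field describes every library as input, and the libraries are treated here as CG1529-GFP ChIP. Whole embryos hold many cell types, so a peak present in few epidermal cells cannot be told apart from no peak. Peaks in embryos older than 14 h, or in larvae, pupae and adults, are not covered.

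The Cpr family is named after the chitin-binding stretch known as the Rebers and Riddiford consensus, which lets these secreted proteins bind chitin fibres and set how soft or stiff a cuticle is. Epidermal and tracheal cells deposit the larval cuticle late in embryogenesis, and other family members serve the pupal and adult cuticle or the lens of the eye. Many of the genes are short, start from a single site and lie in tandem clusters that arose by duplication.

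Peak lists were deposited for each library, for the pooled libraries and as a joint list of peaks that recur by rank (irreproducible discovery rate), called the optimal list here. Each relaxed list has 30000 rows and holds background as well as peaks, so for each library the 3921 peaks of highest signal, as many as the optimal list has rows, are called its strongest peaks. The optimal list has 3905 distinct peaks. The signal value of a peak is the authors' and is used only to rank or describe peaks within 1 list. Depth in reads is unknown. Whether the replicates came from separate collections of embryos is not stated beyond the word biological. Coordinates are dm6, counted from 1, and TSS means an annotated transcription start site.

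The sequences that carry the result come first. Of 70 genes, 3 owned the TSS nearest to an optimal summit within 5 kb of the gene, and the 101 bases centred on those summits are shown with that of the strongest peak near any Cpr gene, on the plus strand of RefSeq's copy of the Release 6 assembly. Capitals mark the word TTTAAA and the word TAATTA, and would also mark the word TATAAA, on either strand.
Cpr65Av, 3L:6140294-6140394: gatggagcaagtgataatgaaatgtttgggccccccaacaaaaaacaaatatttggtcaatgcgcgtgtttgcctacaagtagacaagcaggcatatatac
Cpr76Ba, 3L:19516686-19516786: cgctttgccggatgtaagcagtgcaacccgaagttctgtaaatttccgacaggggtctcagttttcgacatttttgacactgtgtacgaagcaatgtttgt
Cpr100A, 3R:30865579-30865679: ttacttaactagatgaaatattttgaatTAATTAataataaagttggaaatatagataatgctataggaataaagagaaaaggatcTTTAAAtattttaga
Cpr78Cc, 3L:21304500-21304600: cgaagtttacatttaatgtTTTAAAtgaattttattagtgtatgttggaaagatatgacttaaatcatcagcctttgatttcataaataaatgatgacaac
The window at Cpr65Av had 41.6% G+C and that at Cpr76Ba 45.5%, and neither held 1 of the 3 words. The window at Cpr100A had 18.8% G+C with 2 of the words, and that near Cpr78Cc 24.8% with 1. Over all optimal summits the mean G+C was 33.8% ± 9.11 (SD, n = 3905 windows), and over the 8 optimal summits within 5 kb of a Cpr gene it was 32.5% ± 8.91 (SD, n = 8 windows). TTTAAA was in 2 of those 8 windows and in 19.9% of all 3905. TAATTA was in 1 of the 8 and 9.94% of all, and TATAAA in 1 and 22.5%.

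Promoters of Cpr genes held almost no CG1529-GFP peak. Of 70 genes, 1 had an optimal summit within 500 bp of a TSS, Cpr65Av, which is 1.43% (exact 95% interval 0.0362 to 7.70) against 13.3% of all protein-coding genes. Among protein-coding genes with a single annotated TSS, as 63 of the 70 have, the share was 9.32%, and of those 63 Cpr genes 1 had such a summit. The median length of a Cpr gene was 1094 bp and that of a protein-coding gene 2166 bp. Intervals here cover counting error only, and genes that share a peak are not independent. No test of the difference between the Cpr genes and the rest was made, since members are not replicates, and the shares are given side by side.

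The libraries gave the same low counts. Among its strongest peaks replicate 1 had a summit within 500 bp of a TSS at 0 of 70 Cpr genes, against 12.5% of all protein-coding genes. A count of 0 is given here with 2 limits, the share that 3 counts would make, 4.29% for these 70 genes, and the exact upper bound, 5.13%. Replicates 2 and 3 each had 1, again Cpr65Av, against 14.2% and 13.7%. The members gave a mean of 0.952% ± 0.825 and all protein-coding genes 13.5% ± 0.919 (SD, n = 3 libraries), and the values of the 2 sets did not overlap. A strongest peak in all 3 libraries was found at 0 Cpr promoters, against 8.5% of protein-coding genes.

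**Figure D1:**
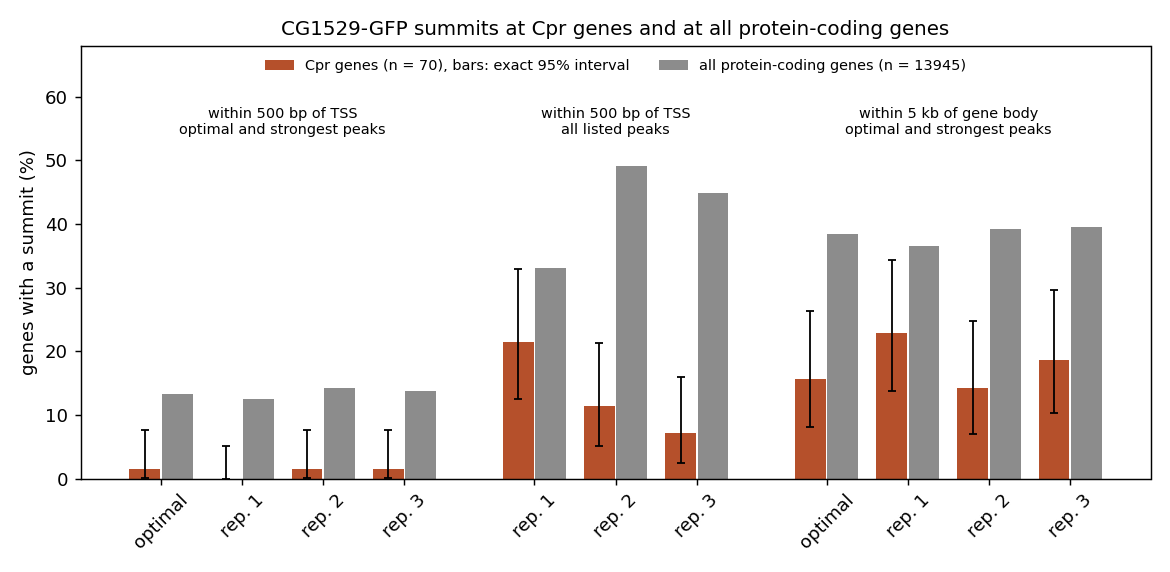
Percent of genes (y axis) with a summit, for the 70 Cpr genes (red, error bars are exact 95% intervals) and all 13945 protein-coding genes (grey), in the optimal list and in replicates 1 to 3. From left to right the bars count summits of optimal or strongest peaks within 500 bp of a TSS, of any listed peak within 500 bp, and of optimal or strongest peaks within 5 kb of the gene body; the red bar is lower in every pair.

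Within 5 kb of the gene body an optimal summit was found for 11 of 70 Cpr genes (15.7%, exact interval 8.11 to 26.4), against 38.4% of all protein-coding genes. The other 59 had none. Of the 63 Cpr genes with 1 TSS, 9 had one, against 33.1% of protein-coding genes with 1 TSS. Strongest peaks lay this close to 16 Cpr genes in replicate 1 (22.9%), 10 in replicate 2 (14.3%) and 13 in replicate 3 (18.6%), against 36.5%, 39.2% and 39.5% of protein-coding genes. The mean over libraries was 18.6% ± 4.29 for Cpr genes and 38.4% ± 1.63 for all (SD, n = 3 libraries), and the highest member value was below the lowest of all genes. By this measure 8 Cpr genes were reached in all 3 libraries, 5 by 2 libraries, 5 in 1 library only and 52 in none. The shares were 11.4%, 7.14%, 7.14% and 74.3% in that order, against 28.6%, 9.53%, 10.4% and 51.5% of all protein-coding genes. The 8 were all among the 11 with an optimal summit. When a summit was counted only for the protein-coding gene with the nearest TSS, 3 Cpr genes were left, and the share of all protein-coding genes was 16.3%.

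The distance from a TSS to the nearest optimal summit had a median of 18325 bp for Cpr genes and 10437 bp for all protein-coding genes, and 12105 bp for those with 1 TSS. Within 10000 bp of the TSS the shares were 24.3%, 48.8% and 44.5% in that order. At 50000 bp the order had turned, with 94.3% of Cpr genes, 87.6% of all and 86.2% of those with 1 TSS. The nearest member was Cpr65Av at 370 bp, followed by Cpr73D at 834, Cpr76Ba at 1596, Cpr100A at 1892 and Cpr65Aw at 2069 bp. The farthest was Cpr78E, 60265 bp from any optimal summit, then Cpr50Ca at 52513 bp and Cpr60D at 51739 bp.

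**Figure D2:**
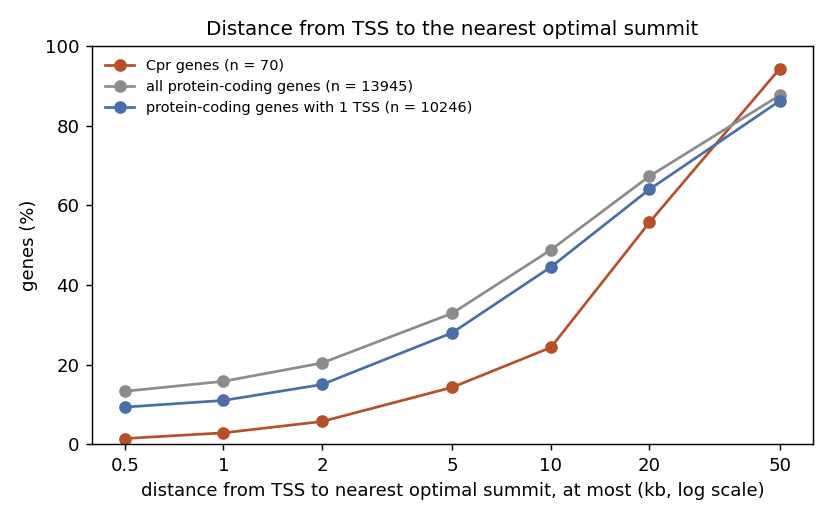
Percent of genes (y axis) whose TSS lies at most a given distance (x axis, kb, log scale) from an optimal summit, for Cpr genes (red), all protein-coding genes (grey) and protein-coding genes with 1 TSS (blue). The red line is the lowest up to 20 kb (55.7% of Cpr genes there, against 67.3% and 64.0%) and is above the others at 50 kb.

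Cpr65Av had the only promoter peak. It lies on 3L between Cpr65Av and Cpr65Aw, both on the minus strand, and the optimal peak at 3L:6140126-6140561 had its summit 370 bp upstream of the Cpr65Av TSS, in intergenic sequence. Its signal was 184, at rank 3120 of 3905. In the libraries the overlapping peak had signal 49.6 at rank 4056 in replicate 1, 61.8 at rank 2664 in replicate 2 and 75.4 at rank 3181 in replicate 3. It was thus just outside the strongest peaks of replicate 1 and inside those of replicates 2 and 3. Cpr65Aw, whose gene body ends 1559 bp away, was counted within 5 kb through the same peak. A weak peak was listed at the TSS of neither Cpr65Aw nor Cpr65Au, the nearest members on either side, in any library.

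The peaks at Cpr76Ba and Cpr100A were present in all 3 libraries but lay away from the start sites. The peak at 3L:19516518-19516953 was intergenic, 816 bp beyond the 3′ end of Cpr76Ba and 1596 bp from its TSS. Its optimal signal was 249.6 at rank 2020, and its ranks were 1928, 1622 and 2982 in replicates 1, 2 and 3. It also put Cpr76Bb, at 2913 bp, and Cpr76Bc, at 4209 bp, within the 5 kb window, so 3 counted genes rest on this 1 peak. The peak at 3R:30865411-30865846 was intergenic, 1892 bp upstream of the Cpr100A TSS, with signal 216 at rank 2484 and ranks 3377, 2448 and 2757 in the libraries. Both peaks ranked below the middle of the optimal list.

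The other 5 peaks lay nearer to start sites of genes that encode no cuticular protein. The strongest by far, signal 1329 at rank 54, was at 3L:21304395-21304752, 3379 bp beyond the 3′ end of Cpr78Cc. Its summit was 83 bp from a TSS of CG11309 and inside an intron of that gene. The summit also lay 0.147 kb from the start of CG7632, on the plus strand, while CG11309 is on the minus strand. The peak's ranks of 101, 36 and 52 in replicates 1, 2 and 3 put it near the top of every library. The peak counted for Cpr67B (3L:9410929-9411044, signal 395, rank 947) lay 4808 bp from the gene and 56 bp upstream of a TSS of Cpsf5, which encodes a cleavage and polyadenylation factor subunit. CG4022, on the minus strand, starts at -0.15 kb from that summit, on the other side from Cpsf5. The peak counted for Cpr66Cb (3L:8340265-8340700, signal 244) was in the 5′ UTR of Prim1, a DNA primase subunit gene, 169 bp from its TSS. That counted for Cpr31A (2L:10057228-10057663, signal 233) was in an intron of Pen, an importin alpha gene, 546 bp from its TSS.

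The peak at Cpr73D, the longest member at 18590 bp, was the only optimal summit inside the body of a Cpr gene. The share of all protein-coding genes with a summit inside the body is not given here. The Cpr73D peak lies at 3L:16956637-16957072 in an intron of Cpr73D, 834 bp downstream of its TSS. It is also in an intron of Ogdh, which encodes an oxoglutarate dehydrogenase subunit and runs on the other strand. The nearest TSS was of Ogdh, at 584 bp. Its signal was 205 at rank 2671, and the libraries ranked it 2767, 7998 and 2274. Replicate 2 therefore did not have it among its strongest peaks, while replicates 1 and 3 did. Of the 8 peaks, 6 were among the strongest of all 3 libraries, and the peaks of Cpr73D and Cpr65Av were in 2.

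**Figure D3:**
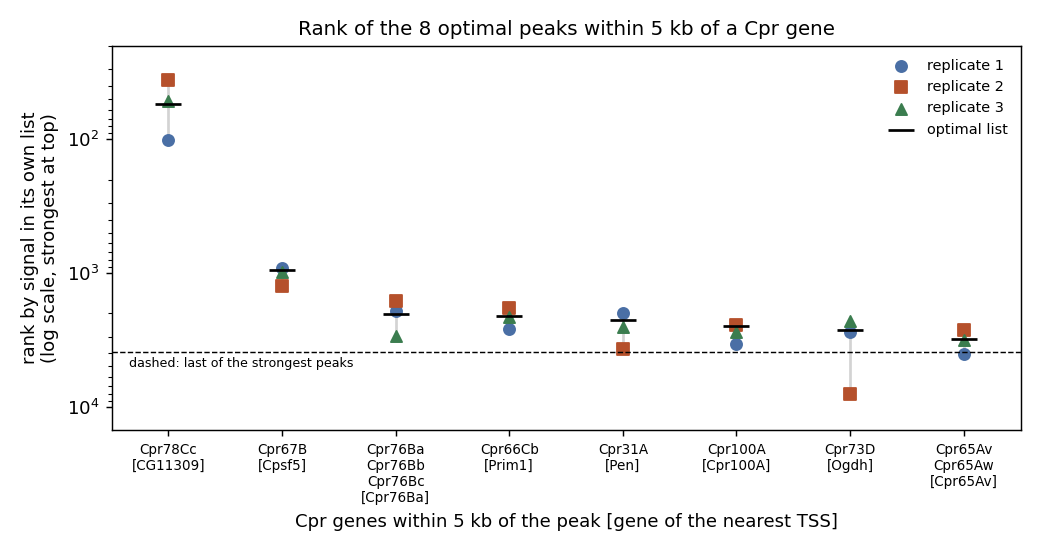
Rank by signal (y axis, log scale, strongest at the top) of the 8 optimal peaks within 5 kb of a Cpr gene, in the optimal list (black bars) and of the overlapping peak in replicates 1 to 3 (symbols). Each column names the Cpr genes and, in brackets, the gene of the nearest TSS; the peak near Cpr78Cc ranks highest in every list, between 36 and 101, and replicate 1 at Cpr65Av and replicate 2 at Cpr73D fall below the dashed line at rank 3921.

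**Figure D4:**
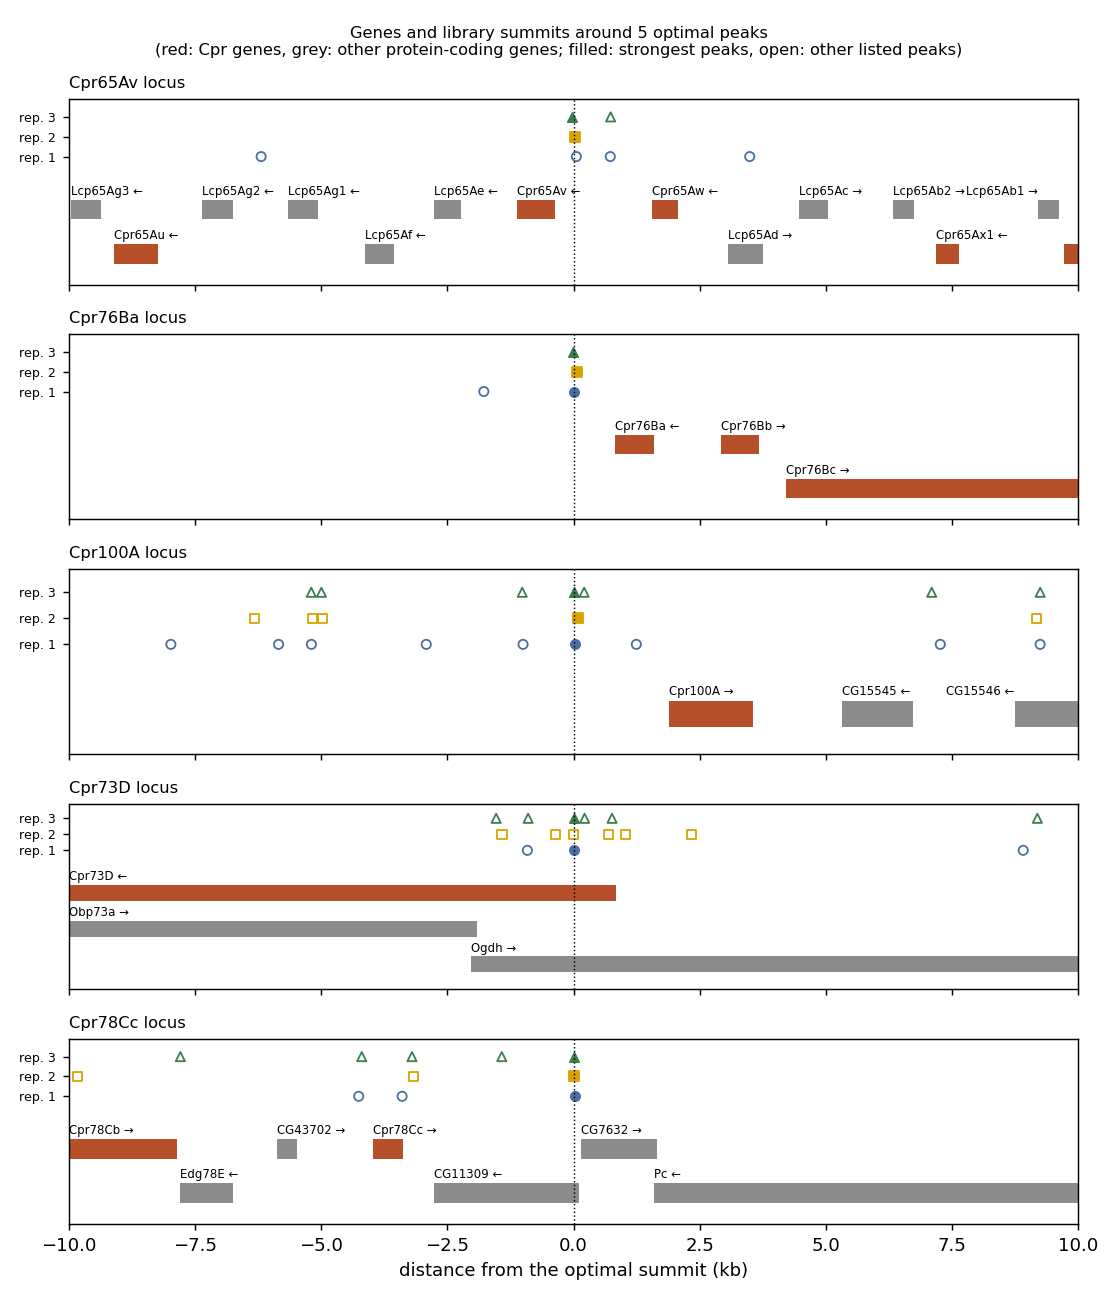
Protein-coding genes (boxes, arrows give the strand) and summits of replicates 1 to 3 (symbols, filled for strongest peaks) within 10 kb of 5 optimal summits, with distance from the summit in kb on the x axis. The summit at Cpr65Av sits between Cpr65Av and Cpr65Aw, with Lcp genes farther out on both sides. That at Cpr76Ba is beyond the end of the gene and that at Cpr100A upstream of it. The summit at Cpr73D is in the overlap with Ogdh, and that near Cpr78Cc at the starts of CG11309 and CG7632.

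Most members sit in clusters. Chaining members whose bodies are at most 20 kb apart gave 10 clusters of 3 or more genes with 45 members, 2 pairs with 4 members (Cpr50Ca with Cpr50Cb, and Cpr97Ea with Cpr97Eb) and 21 lone genes. Clusters had an optimal summit within 5 kb at 6 of 45 members (13.3%, exact interval 5.05 to 26.8), pairs at 0 of 4 (3 counts 75%, exact upper bound 60.2%) and lone genes at 5 of 21 (23.8%, exact interval 8.22 to 47.2). The intervals of clustered and lone genes overlap widely. The share of all protein-coding genes, 38.4%, was above the interval of clustered genes and inside those of lone genes and pairs. The 6 clustered genes rest on 3 peaks and the 5 lone genes on 5. Median distances from the TSS to an optimal summit were 19193 bp in clusters, 26134 bp in pairs and 14609 bp for lone genes.

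Together the 10 clusters span 169 kb and held 1 optimal summit, that of Cpr65Av, or 5.90 per Mb against 29.2 per Mb over the 6 chromosomes. For listed peaks of any strength the clusters held 218 summits per Mb in replicate 1, 100.3 in replicate 2 and 124 in replicate 3, against 224 over the chromosomes in each. Replicate 1 was thus near the value of the chromosomes and the other two libraries below it.

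Both clusters on 2R held no optimal summit. Cpr49Aa to Cpr49Ah, 8 genes over 38.5 kb at 2R:12376626-12415170, lay 23650 to 50652 bp from one by TSS, and none of the 8 had a listed summit of any strength within 500 bp of a TSS in any library. Cpr47Ea to Cpr47Eg, 7 genes over 26.7 kb at 2R:11251751-11278445, lay 5751 to 24220 bp away. Replicates 1 and 3 each had 1 strongest peak inside that span, within 5 kb of Cpr47Ef and Cpr47Eg, and replicate 2 had 0. In all, 0 of 21 Cpr genes on 2R had an optimal summit within 5 kb (3 counts 14.3%, exact upper bound 16.1%), against 36.3% of protein-coding genes of that arm. On 3L the count was 9 of 35, against 41.2%.

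The clusters on 3L differed in what lay near them. The cluster from Cpr65Au to Cpr65Az (3L:6131242-6161589, 7 Cpr genes) has 11 other protein-coding genes inside it, many of them Lcp genes of the same consensus family, and it alone held an optimal summit inside its span. The cluster from Cpr76Ba to Cpr76Bd (4 genes, 20.7 kb) had one 816 bp to its left but no listed summit of any library inside. Cpr72Ea to Cpr72Ec (3 genes, 4.74 kb) had neither, and the nearest optimal summit was 13626 bp off. Cpr72Ec and the lone gene Cpr66D encode proteins of the corneal lens, and Cpr66D was 11312 bp from an optimal summit. Cpr64Aa to Cpr64Ad (4 genes), Cpr62Ba to Cpr62Bc, Cpr65Ea to Cpr65Ec and Cpr67Fa1 to Cpr67Fb (3 each) had 0 genes within 5 kb of an optimal summit. In Cpr78Ca to Cpr78Cc it was Cpr78Cc alone, through the peak near the starts of CG11309 and CG7632.

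The relaxed lists, which include background, gave less even counts. Within 500 bp of a TSS, any listed summit was found at 15 Cpr genes in replicate 1 (21.4%, exact interval 12.5 to 32.9), 8 in replicate 2 (11.4%, 5.07 to 21.3) and 5 in replicate 3 (7.14%, 2.36 to 15.9). Over all protein-coding genes the shares were 33.1%, 49.1% and 44.9%. Replicate 1 therefore had the highest share of Cpr genes and the lowest of all genes. The 3 lists together reached 22 Cpr genes and left 48 with none.

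These listed peaks rarely recurred. Of the 22 genes, 17 (77.3%) were reached in 1 library only, against 31.3% of the 8644 protein-coding genes with a listed summit. Only Cpr65Av had a listed summit in all 3 libraries (1.43% of Cpr genes against 22.6% of protein-coding genes), and Cpr51A, Cpr62Ba, Cpr73D and Cpr78Cc had one in 2. At Cpr62Ba these were different peaks that did not overlap, with summits 314 bp upstream of a TSS in replicate 1 and 445 bp downstream in replicate 3. The median rank of the best peak was 20673 in replicate 1, 21165 in replicate 2 and 18458 in replicate 3, of about 30000. Apart from Cpr65Av the best-ranked were Cpr62Bb in replicate 1 (rank 8235, summit 17 bp upstream of the TSS) and Cpr73D in replicate 2 (rank 10567, 145 bp downstream).

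Besides the strong peak beyond its 3′ end, near the starts of CG11309 and CG7632, Cpr78Cc had a weak summit listed upstream of its TSS. It was 286 bp away in replicate 1 (rank 13171) and 225 bp in replicate 3 (rank 18458), with none within 500 bp in replicate 2. In the pooled list it stood at rank 21272, far below the optimal peaks. Cpr66Cb, with the Prim1 peak beyond its 3′ end, also had a weak summit upstream of its TSS. That summit was 64 bp away, in replicate 1 only (rank 29548).

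**Figure D5:**
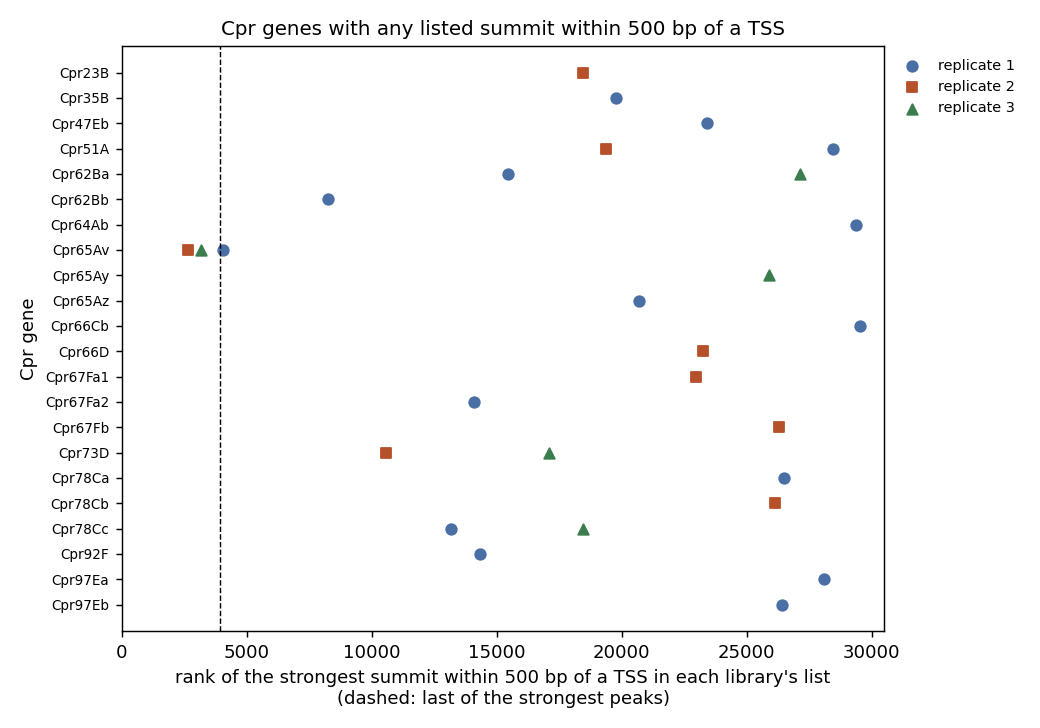
Rank in each library's list (x axis) of the strongest listed summit within 500 bp of a TSS, for the 22 Cpr genes that have one (y axis), with replicates 1, 2 and 3 as circles, squares and triangles. Only Cpr65Av reaches the strongest peaks (dashed line at rank 3921), in replicates 2 and 3, and 17 genes have 1 symbol.

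Core promoter sequence is shown because a TATA box was frequent among Cpr genes. The 80 bases before the TSS of 7 members follow, on the strand of the gene, with TATAAA on either strand in capitals. They are the 4 members above, the pair of lens genes and Cpr73D, which is shown as a promoter without the word.
Cpr65Av, 3L:6139975-6140054, minus strand: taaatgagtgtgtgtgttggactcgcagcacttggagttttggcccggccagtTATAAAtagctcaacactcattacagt
Cpr76Ba, 3L:19518333-19518412, minus strand: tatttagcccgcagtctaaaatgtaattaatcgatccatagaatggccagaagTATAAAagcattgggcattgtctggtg
Cpr100A, 3R:30867441-30867520, plus strand: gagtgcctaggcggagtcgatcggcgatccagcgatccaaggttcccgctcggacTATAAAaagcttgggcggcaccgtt
Cpr78Cc, 3L:21300500-21300579, plus strand: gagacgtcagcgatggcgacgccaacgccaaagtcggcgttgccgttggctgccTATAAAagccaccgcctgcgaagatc
Cpr66D, 3L:8640359-8640438, plus strand: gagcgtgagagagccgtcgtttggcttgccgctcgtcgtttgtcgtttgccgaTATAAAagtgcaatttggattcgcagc
Cpr72Ec, 3L:16367341-16367420, minus strand: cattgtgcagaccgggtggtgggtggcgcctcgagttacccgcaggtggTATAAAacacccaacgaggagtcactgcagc
Cpr73D, 3L:16957690-16957769, minus strand: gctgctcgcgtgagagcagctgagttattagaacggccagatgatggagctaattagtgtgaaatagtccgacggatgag
The first 6 were chosen with these letters known, and TATAAA stands in them where a TATA box usually lies, the element that fixes the start site at many regulated genes. Of the 11 members with an optimal summit within 5 kb, 5 had it there and 6 did not.

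On the sense strand, TATAAA lay between 40 and 15 bp before the outermost TSS at 34 of 70 Cpr genes (48.6%, exact interval 36.4 to 60.8), against 7.79% of 13945 protein-coding promoters. Of the 1087 protein-coding genes with TATAAA there, 4.51% had an optimal summit within 500 bp of a TSS, and of those without, 14.0% had one. Among Cpr genes it was 1 of 34 with and 0 of 36 without. The part of this promoter class in the low count of the Cpr genes was not tested.

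In the 300 bp promoter window (250 bp before the TSS and 50 bp from it on), both strands searched, Cpr promoters held TATAAA at 70.0% against 45.8% of all protein-coding promoters, and TTTAAA at 7.14% against 38.9%. ATCGAT, the core of the DNA replication-related element of housekeeping promoters, was at 5.71% against 23.3%, and TAATTA, a homeodomain core, at 14.3% against 20.4%. AACCGG, part of the site of the epidermal factor Grainy head, was at 12.9% (exact interval 6.05 to 23.0) against 7.06%, TCAGT, part of the initiator, at 60.0% against 51.5%, and GAGAG at 32.9% against 29.7%. AAGGTCA, a nuclear receptor core, was at 0 of 70 (3 counts 4.29%, exact upper bound 5.13%), against 2.11%. The exact intervals for TAATTA (7.07 to 24.7), TCAGT (47.6 to 71.5) and GAGAG (22.1 to 45.1) contained the share of all promoters. So did those for AACCGG and AAGGTCA, while those for TATAAA (57.9 to 80.4), TTTAAA (2.36 to 15.9) and ATCGAT (1.58 to 14.0) did not. TTTAAA and TATAAA are alike in letters, both ending in TAAA. The end of neither matched the beginning of the other on either strand, and over the 8 words the longest such overlap was 3 bases. These are letter matches and not shown to be sites. Mean G+C in this window was 45.1% ± 6.01 (SD, n = 70) for Cpr genes and 39.1% ± 7.74 (SD, n = 13945) for all. Base composition was not tested as a part of the low peak count.

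Repeated copies touch few members. At 68 of 70 promoters no word of 50 bases recurred on the 6 chromosomes. The exceptions were the duplicates Cpr65Ax1 (91.2% of its words) and Cpr65Ax2 (91.6%), and whether peaks can be called there was not tested.

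Other cuticle gene lists are given beside the Cpr genes, with no test between lists. Other genes of the Rebers and Riddiford family (Lcp, Ccp84A, Acp65Aa, Edg78E, Edg84A, Pcp, Crys and resilin) had an optimal summit within 500 bp of a TSS at 0 of 28 (3 counts 10.7%, exact upper bound 12.3%), and within 5 kb at 6 (21.4%, exact interval 8.30 to 41.0). Of these 6, Lcp65Ac, Lcp65Ad, Lcp65Ae and Lcp65Af were reached by the Cpr65Av peak alone, and Pcp and Crys by others. Tweedle genes, a separate cuticle protein family, had 0 of 25 within 500 bp (3 counts 12%, exact upper bound 13.7%), and 1 within 5 kb, Twdlalpha. The same shares for all protein-coding genes are those above, 13.3% and 38.4%.

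Genes that make and modify chitin or harden cuticle, listed with the chitinase-like Idgf genes, had a promoter summit at 4 of 37, or 10.8%, with 13.3% as the share of all protein-coding genes. The exact interval was 3.03 to 25.4. A summit lay within 5 kb of 12 of them (32.4%), and of 38.4% of all. Idgf1, Idgf2 and Idgf3 were reached by the same peak (signal 211). The 4 promoter summits were at the chitinase genes Cht7 (signal 612, 201 bp) and Cht11 (258, 181 bp), Idgf2 of the chitinase-like growth factors (211, 283 bp) and mmy, which makes the sugar donor for chitin (164, 48 bp). Regulators of cuticle genes had a promoter summit at 3 of 15 (20%, exact interval 4.33 to 48.1) and a summit within 5 kb at 12 (80%, exact interval 51.9 to 95.7), against the same 13.3% and 38.4%. In this list 9 genes had an optimal summit inside the body, with 9 summits at Hr4, 7 at Eip75B and 6 at Hr3. The share of all protein-coding genes with a summit inside the body is not given here, so these 9 cannot be set against it. A window around the body is wider for a longer gene, and gene length and number of TSSs were not matched here. The promoter summits were at the ecdysone response genes Eip75B (735, 20 bp) and Hr4 (178, 101 bp) and at grh, which encodes Grainy head (195, 121 bp). EcR, the ecdysone receptor gene, had 4 optimal summits inside its body, the strongest of signal 291, and ftz-f1, a nuclear receptor gene, had 4, the strongest of 306. Blimp-1, an ecdysone-induced repressor gene, was 19005 bp from any.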

How the data were processed

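The members, gene lists, motifs and settings were chosen with earlier results of these data known. The 5 deposited lists use dm6, per the file listings, and hold peaks called on each library's alignment with 1 control alignment, on the pooled libraries, and the optimal list derived from these. The signal and the −log10 q-value of each peak are the authors' values as deposited. No aligner, peak caller or threshold is named by the sources used here. Files were read and counted with Python 3.11.15, numpy 2.4.6, pandas 2.3.3 and scipy 1.17.1. Repeated intervals were dropped, and the summit was the start plus the summit offset, counted from 1. Every peak ended within its chromosome in the RefSeq Release 6 sequence. Annotated transposons were not used as genes. Peaks of 2 lists were matched by an overlap of at least 1 bp. Intervals are exact (Clopper-Pearson, 95%), and the limit for a count of 0 is 3 counts of the total. Counting was tested on simulated data. Named genes are members with an optimal summit within 5 kb of the gene or a strongest peak within 500 bp of a TSS, cluster members, up to 6 genes per other list with a promoter summit, and grh, ftz-f1, EcR and Blimp-1. Other members and list genes named were chosen after their values were seen. The windows for TATAAA, the repeated words and the genes with 1 TSS were also added then.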

Additional observations from a re-analysis of the deposited data

How the results depend on the processing

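Of 40 alternatives over 5 counts, 21 stayed within 1.5 times the value given and 19 did not. The count of Cpr genes with an optimal summit within 500 bp, 1, was 0 at 250 bp and 2 at 1000 bp, where all protein-coding genes gave 10% and 15.8%. It was 0 with the 1952 strongest of the optimal peaks (all protein-coding genes 7.64%) and 0 with those that touch a strongest peak in all 3 libraries (8.35%). To leave out a replicate, the optimal list was not rebuilt, and its peaks were kept if they touched a strongest peak in each remaining library. The count was then 0 to 1, with 0 without replicate 2 and without replicate 3, where the Cpr65Av peak fell away through its rank of 4056 in replicate 1. The count within 5 kb, 11, was 7 at 2 kb and 18 at 10 kb, where all protein-coding genes gave 26.6% and 52.9%. It was 2 with the 1952 strongest optimal peaks, where all protein-coding genes gave 24.8%, and 3 with the nearest TSS only (16.3%). Leaving out each replicate gave 8 to 10. Clustered genes within 5 kb, 6, were 1 with those strongest peaks, 2 with the nearest TSS only, and 4 to 6 without each replicate. Strongest peaks reached 0.667 promoters per library on average, where all protein-coding genes gave 13.5%. The count was 0 at 250 bp, 1.67 at 1000 bp, 0 with 1960 peaks, and 0.500 to 1 without each replicate. With all listed peaks it was 9.33, where all protein-coding genes gave 42.4%. In all 3 libraries strongest peaks reached 0 (all protein-coding genes 8.5%), 1 with 2 times as many peaks, and 0 to 1 without each replicate, 1 being without replicate 1. All listed peaks reached 1 (22.6%). At the other settings of the strongest peaks, and with a replicate left out, the share of all protein-coding genes is not given. With counts this low, 1 gene moves them. No paired analysis was possible because the 3 libraries form 1 group. The lists give no read depth.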
